A study of Mus musculus with 8 samples.

Results

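The TRBV1 chains are the T cell receptor beta chains built on Trbv1, the first functional V segment of the mouse beta locus. They were taken as every cell, without a multiplet mark, whose main TRB chain carried the V call TRBV1 in any of 14 cell tables. There were 9652 such cells among 188544 cells with a TRB chain, or 5.12%, and they held 5452 distinct chains (V gene, J gene and CDR3 amino acids). The gene was chosen by its clonotype sizes in the spleen, where it holds the largest clonotype of the mouse-155A table and ties with TRBV3 for the largest of the mouse-155C table, so those spleen values are given as a description and carry no test.

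The study sequenced the receptors of CD8+ T cells from thymus, spleen and melanomas of adult mice on a C57BL/6 background. The animals were Pdcd1fl/fl controls and Pdcd1 cKO mice, in which Pdcd1fl/fl is combined with CD8-Cre under the E8I enhancer, an element active in CD8 T cells after positive selection. All of them thus carried the floxed Pdcd1 gene. Some bore no tumor and others carried B16-OVA or B16-F10 melanoma. The labels do not tie an animal to its genotype or tumor model, so no comparison by genotype was made. Thymic and splenic cells were enriched with a CD8a+ isolation kit and tumor cells with CD8 (TIL) microbeads, and receptor cDNA was made with the Evercode TCR kit. The labels describe 8 multiplexed sublibraries, each holding cells of many animals, whereas the tables are split by animal and tissue, and tissue and animal were read from the names under which the tables were deposited. There were 7 animals, each with a thymus table, of which mouse-155A and mouse-155C also had a spleen table and the other animals (mouse-164C, mouse-164B, mouse-160C, mouse-160B and mouse-160A) a tumor table. With 1 table per animal and tissue, cells are not replicates, and all intervals below are 95% intervals that cover counting error only.

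A beta chain is assembled in the thymus by joining a V, a D and a J segment, with loss of bases at the segment ends and addition of non-templated bases, and the joined stretch encodes CDR3, the loop that mostly contacts the peptide. Trbv1 lies at the 5′ edge of the locus, far from the other V segments, and recombines through a conserved heptamer and nonamer that follow its coding end. Each beta chain pairs with a TRA chain, and cells that descend from 1 thymocyte share both chains, which is why a repeated pair of CDR3 sequences is counted as a clonotype.

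In the GENCODE annotation of GRCm39, Trbv1 (ENSMUSG00000076461.3) spans chr6:40868163-40868819 on the plus strand in 2 exons, a leader exon of 122 bases and a V exon of 295 bases at chr6:40868525-40868819. The next annotated V gene, Trbv2, starts 155455 bases further on. The CDR3 part of the V exon begins with the codons for C, T, C and S. This start was found in 97.1% of the TRBV1 cells and in none of the 178892 other cells. The germline stretch below is shown because TRBV1 CDR3s take their first bases from its V part. Its first 17 bases are V coding sequence, the capitals mark the heptamer and the nonamer of the recombination signal, and the spacer between them has 23 bases. Both D segments are given with it because the middle of most TRBV1 CDR3s derives from them.
Trbv1 end of V exon and recombination signal, chr6:40868803-40868858 (+): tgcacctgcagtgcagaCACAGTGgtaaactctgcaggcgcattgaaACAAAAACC
Trbd1, chr6:41510135-41510146 (+): gggacagggggc
Trbd2, chr6:41519097-41519110 (+): gggactgggggggc

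The CDR3 sequences on which the results turn were read from the annotation tables and are given from the conserved cysteine codon to the last J codon of CDR3, with capitals for the bases between the V-derived and the J-derived part (D-derived and non-templated bases). The chain with most cells and the chains of the largest TRBV1 clonotypes of both spleens and of 4 of the tumors are shown. By cells with the TRB chain alone, other TRBV1 chains were more frequent in the mouse-155C spleen and the mouse-160B tumor. A further mouse-160C tumor chain and a chain with many different TRA partners follow.
mouse-160C tumor chain, TRBD2 and TRBJ2-2: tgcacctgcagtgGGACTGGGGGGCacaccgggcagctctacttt
mouse-155A spleen chain, TRBD1 and TRBJ1-4: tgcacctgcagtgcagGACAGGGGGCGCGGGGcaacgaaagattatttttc
mouse-155C spleen chain, TRBD2 and TRBJ2-5: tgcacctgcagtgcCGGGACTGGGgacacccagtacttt
mouse-164B tumor chain, TRBD2 and TRBJ2-2: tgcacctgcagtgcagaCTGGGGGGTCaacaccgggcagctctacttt
mouse-160A tumor chain, TRBD2 and TRBJ2-3: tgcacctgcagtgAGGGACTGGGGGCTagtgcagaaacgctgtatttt
mouse-160B tumor chain, TRBD1 and TRBJ2-7: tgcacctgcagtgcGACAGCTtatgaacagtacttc
mouse-160C tumor chain with TRBJ2-7, TRBD1: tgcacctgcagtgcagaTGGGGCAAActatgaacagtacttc
mouse-164C tumor chain with TRBJ2-7: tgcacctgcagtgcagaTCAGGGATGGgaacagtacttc
The mouse-160C tumor chain lost 4 V bases and 3 J bases and holds 1 non-templated base. The mouse-155A spleen chain lost 1 V base and holds 6 non-templated bases. The mouse-164B tumor chain kept all 17 germline V bases.

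Before the results, 2 features of the tables need stating. The number of cells with a TRB chain ran from 5281 to 29894 per table, and 51.9% of the TRBV1 cells rested on 1 TRB transcript. A cell barcode here is made of a sample-specific first part, 2 further parts and a sublibrary, and 26.3% of the TRBV1 cells shared the chain and everything but the first part with a cell of another table, against 26.0% of the other cells. Between 18.5% (mouse-164C tumor) and 42.2% (mouse-155C spleen) of the TRBV1 cells of a table were such repeats. Their part in the results was not tested. Results without them are given for the tumor shares, the TRA partner of NKT cells, chains found in several animals and clonotypes shared between tables. They are not given for J pairing, CDR3 length or clone size. No V call in the tables belonged to a gamma, delta or immunoglobulin gene. The libraries were made for TRA and TRB chains, so this cannot show whether cells bearing the others were present.

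TRBV1 made up a narrow share of thymic chains and a variable share of tumor chains. In the thymus the share was 5.78% in mouse-164C, 5.33% in mouse-164B, 4.99% in mouse-160C, 5.28% in mouse-160B and 5.01% in mouse-160A. Of the animals with a spleen table, mouse-155C had 5.01% and mouse-155A 5.79%. In the spleen it was 5.78% (5.34 to 6.24) in mouse-155A and 5.81% (5.25 to 6.41) in mouse-155C. The mouse-164C tumor had 3.86% (3.64 to 4.08), the mouse-164B tumor 4.27% (3.95 to 4.62), the mouse-160C tumor 8.32% (7.86 to 8.80), the mouse-160B tumor 4.56% (4.28 to 4.85) and the mouse-160A tumor 2.40% (2.01 to 2.85). Thus all 7 thymus tables and both spleen tables lay between 4.99% and 5.81%, 4 tumors lay below them and the mouse-160C tumor lay above them. Ordered by share, the mouse-155A thymus, mouse-164C thymus and both spleens had overlapping intervals, as did the other 5 thymus tables among themselves. Of the thymus tables, mouse-164C and mouse-160C were separated. In the tumors, neither the lowest tumor (mouse-160A) nor the highest (mouse-160C) overlapped any other table. Of the 19 TRBV genes whose median share reached 1%, TRBV1 ranked 8 by its median of 5.14%, and the ratio of its highest to its lowest share, 3.46, ranked 5.

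Set against the thymus of the same animal, the TRBV1 share was lower in 4 of 5 tumors. The differences, as tumor minus thymus in percentage points with Newcombe intervals, were -1.92 (-2.33 to -1.52) in mouse-164C, -1.06 (-1.51 to -0.60) in mouse-164B, -0.72 (-1.17 to -0.27) in the mouse-160B pair and -2.61 (-3.28 to -1.93) in mouse-160A, against 3.34 (2.73 to 3.94) in mouse-160C. Spleen minus thymus was -0.01 (-0.68 to 0.64) in mouse-155A and 0.80 (0.02 to 1.59) in mouse-155C. Each of the 5 tumor shares had an exact interval that did not overlap that of its thymus, whereas both spleen intervals did overlap theirs. Such separation was common: over 19 genes and 7 animals, 51.9% of the gene and animal pairs were separated (69 of 133), and 46.3% of the gene and tumor pairs were lower in the tumor (44 of 95). The 4 lower tumors of TRBV1 are thus read against a background in which 44 of 95 pairs moved that way. Leaving out every cell with repeated barcode parts, the same 4 of 5 tumors were lower and the mouse-160C tumor stood at 9.25%. Over the 5 animals, whose genotype and tumor model the labels do not give, the mean difference was -0.59 ± 2.32 points (SD, n = 5). A two-sided exact sign-flip permutation test gave p = 0.625, and 5 animals cannot give less than 0.0625 in it. The paper lists tumor pairs of both genotypes and both melanoma models, so this mean pools unlike animals.

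The rise in the mouse-160C tumor belonged to 1 chain. Without it, TRBV1 made up 2.35% (2.09 to 2.63) of the remaining cells there, 2.48 points below the thymus, and all 5 tumors were then below their thymus, with overlapping intervals in mouse-160B. The mean difference over the 5 animals was then -1.70 ± 0.83 points (SD, n = 5). This mean is a description only: the chain was left out after seeing the data, while frequent chains of other V genes stayed in. When each distinct chain was counted once per table in place of each cell, the tumor shares were 4.58% in mouse-164C, 5.55% in mouse-164B, 5.05% in mouse-160C, 4.88% in mouse-160B and 5.66% in mouse-160A, against 5.11% to 5.83% in the thymus of the same animals. Counted this way, the tumor minus thymus differences were -1.25, 0.076, -0.17, -0.58 and 0.54 points in the same order, and the exact intervals were separated in 2 animals of 7. By distinct chains, 2 tumors thus lay within the range of the thymus tables and 3 below it.

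**Figure D1:**
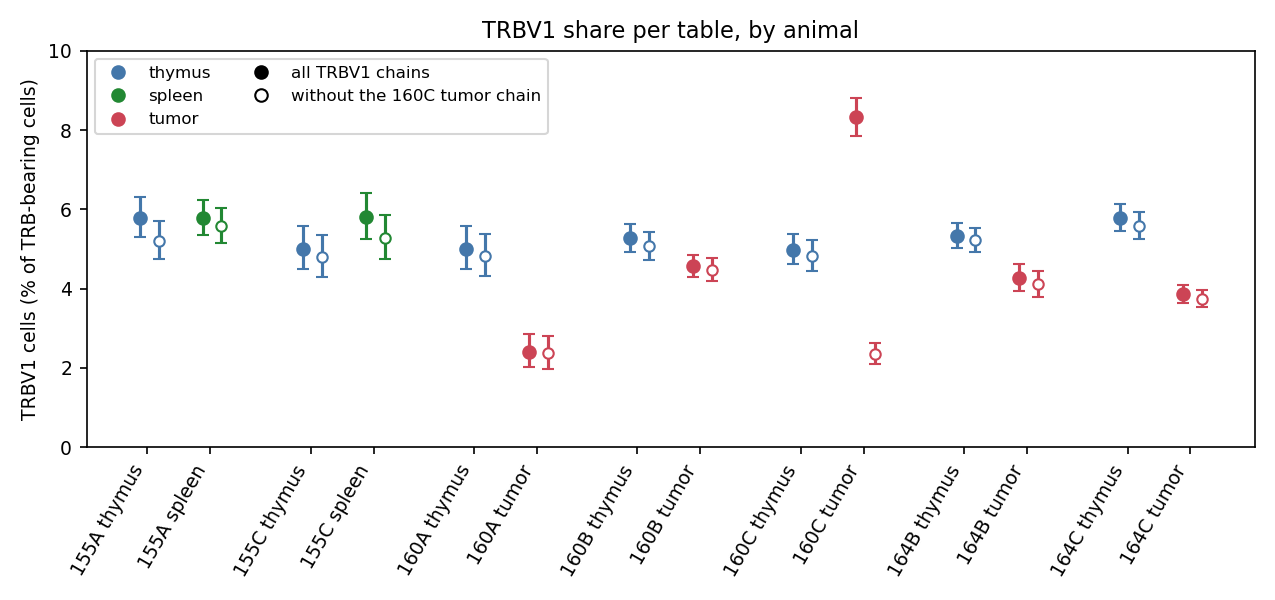
Share of TRBV1 among cells with a TRB chain (%, y axis) in each of the 14 tables, ordered by animal, with exact 95% intervals for counting error. Filled points hold all TRBV1 chains, and open points leave out the mouse-160C tumor chain: the mouse-160C tumor moves from 8.32% to 2.35%, below its thymus, while the other tables move little.

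The genes whose shares over the 14 tables were most like those of TRBV1 were TRBV4 (Spearman rho 0.63), TRBV13-3 (0.60) and TRBV3 (0.56). These values describe 14 tables in which shares of 1 table sum to a fixed total and the tables of an animal are not independent. Without the mouse-160C tumor chain they became 0.27, 0.21 and 0.60, and TRBV17 then had the highest value, 0.75.

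The mouse-160C tumor chain had 825 cells in that tumor, 6.12% of its cells with a TRB chain (5.72 to 6.54) and 73.5% of its TRBV1 cells. The next most frequent chain of that table, on TRBV13-3, had 490 cells. The 825 cells held a mean of 4.46 TRB transcripts, against 3.08 in the other cells of the table, and 32.7% of them rested on 1 transcript against 59.7%. A TRA chain was found in 150 of the 825 cells (18.2%), below the 28.5% of other cells in that table. Those 150 cells carried 48 different TRA CDR3 sequences, the most frequent of which took 41 cells and the next 28 and 14. The first of these TRA sequences, CAVSAQCSPGT on TRAV3-1 and TRAJ28, does not end in the usual F or W, and it occurred in 1052 cells with 882 different TRB chains over all 14 tables. The second, on TRAV7-4 and TRAJ6, does not end so either, but 28 of the 30 cells with it in that tumor carried this chain. The leading TRA chain covered 27.3% of the cells that had one. For comparison, 52 chains on other V genes had at least 100 cells in a table, and a TRA chain was found in a median of 60.4% of their cells, with 17 of the 52 below the mouse-160C tumor chain. Among these chains the leading TRA chain covered a median of 80.9%, with 14 of the 52 below the mouse-160C tumor chain.

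The same chain was also called in all 13 other tables. There it had 54 cells in the mouse-155A thymus, 39 in the mouse-164C tumor, 37 in the mouse-164C thymus, 36 in the mouse-155C spleen and 35 in the mouse-160B thymus. The other tables held 2 to 24 cells each, and the mouse-160C thymus itself held 21. Of these 340 cells, 333 had 1 TRB transcript and 7 had a TRA chain. All barcode parts but the first were shared with a carrier in the mouse-160C tumor in 200 of the 340 cells (58.8%), against 1.56% of the cells with any other chain in those tables. Such a spread was common to frequent chains: of the 52 frequent chains on other V genes, 40 were called in all 13 other tables, a median of 98.1% of their cells there had 1 transcript (52.7 to 100%), a median of 56.3% shared the later barcode parts with a carrier in the chain's own table (4.70 to 78.1%), and 22 of the 52 lay at or above the mouse-160C tumor chain in this last share. The nucleotide sequence was the same in 1116 of 1119 annotation rows over the 14 tables. A further 208 carriers in the mouse-160C tumor bore the multiplet mark and were left out. Whether the cells outside the mouse-160C tumor carry the chain themselves was not tested.

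**Figure D2:**
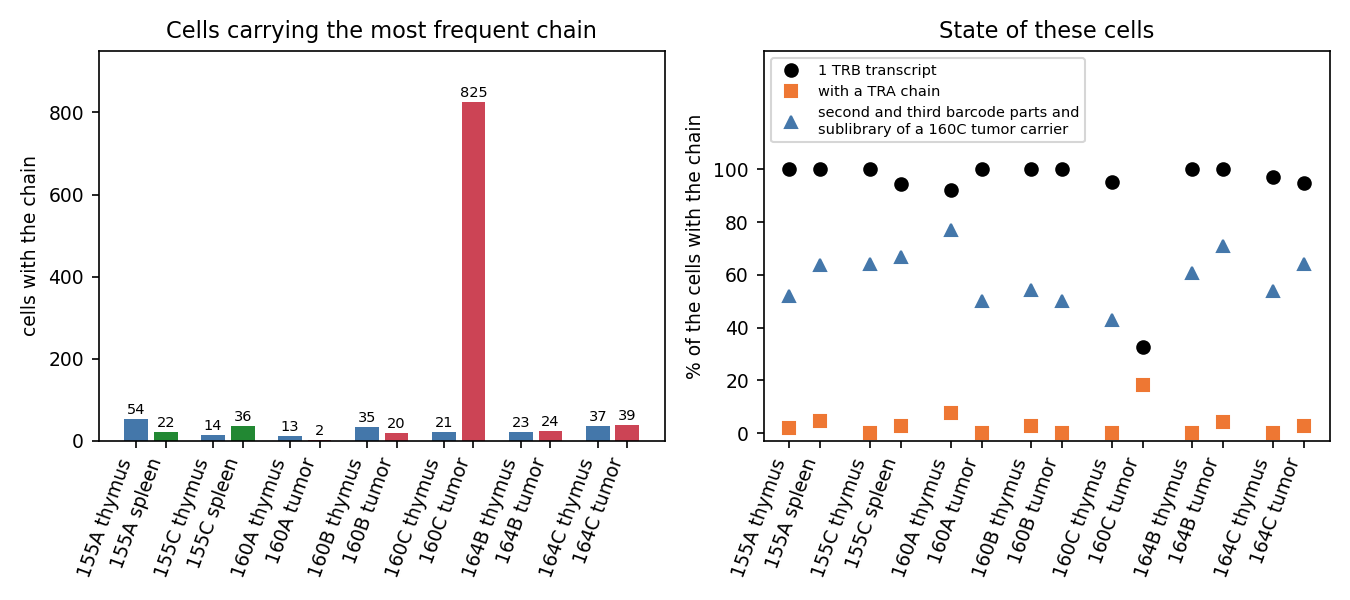
Left, cells carrying the mouse-160C tumor chain in each table (y axis, count). Right, the share of those cells (%) with 1 TRB transcript, with a TRA chain, and with all barcode parts but the first shared with a carrier in the mouse-160C tumor (not defined for that tumor itself): outside the tumor 2 to 54 cells per table carry the chain, nearly all on 1 transcript.

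J pairing of TRBV1 differed from that of the other chains in several segments. TRBJ2-7, TRBJ1-1 and TRBJ2-1 were the most used J genes, with medians of 14.1%, 12.2% and 10.996% of the TRBV1 cells of a table. The other chains used them at medians of 19.2%, 11.7% and 13.7%. TRBJ2-7 was lower among TRBV1 chains in 12 of 14 tables and TRBJ2-1 in 13 of 14. TRBJ1-1 was higher in 9 of 14 tables, and in 12 of 14 without the mouse-160C tumor chain.

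Further J segments are named after their values were seen. TRBJ1-6 had a median of 4.25% among TRBV1 chains against 2.37%, was higher in 12 of 14 tables, and without the mouse-160C tumor chain was higher in all 14 (median 4.37%). TRBJ1-2 was lower in 13 of 14 tables, with a median of 5.07% against 7.38%. TRBJ2-2 was higher in all 14 tables (9.06% against 5.35%), but in 8 of 14 (median 6.23%) once the mouse-160C tumor chain, which uses it, was left out. TRBJ1-4 was higher in 12 of 14 tables (7.98% against 6.60%). The whole TRBJ1 cluster, which lies between both D segments, took 38.3% of TRBV1 chains against 35.4% of the others at the median, and was higher in 12 of 14 tables and in 13 of 14 without that chain.

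D use was close to that of the other chains. Without the mouse-160C tumor chain, 44.1% of TRBV1 cells had TRBD1, 27.6% had TRBD2 and 28.3% had no D call, against 44.0%, 30.4% and 25.6%. A constant gene was called in 2.72% of TRBV1 cells and in 65.8% of the other cells. By this measure TRBV1 was next to the lowest of the 19 genes, above TRBV20 at 0.52% and below TRBV19 at 16.2%, so the J cluster, not the constant gene call, was used above.

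**Figure D3:**
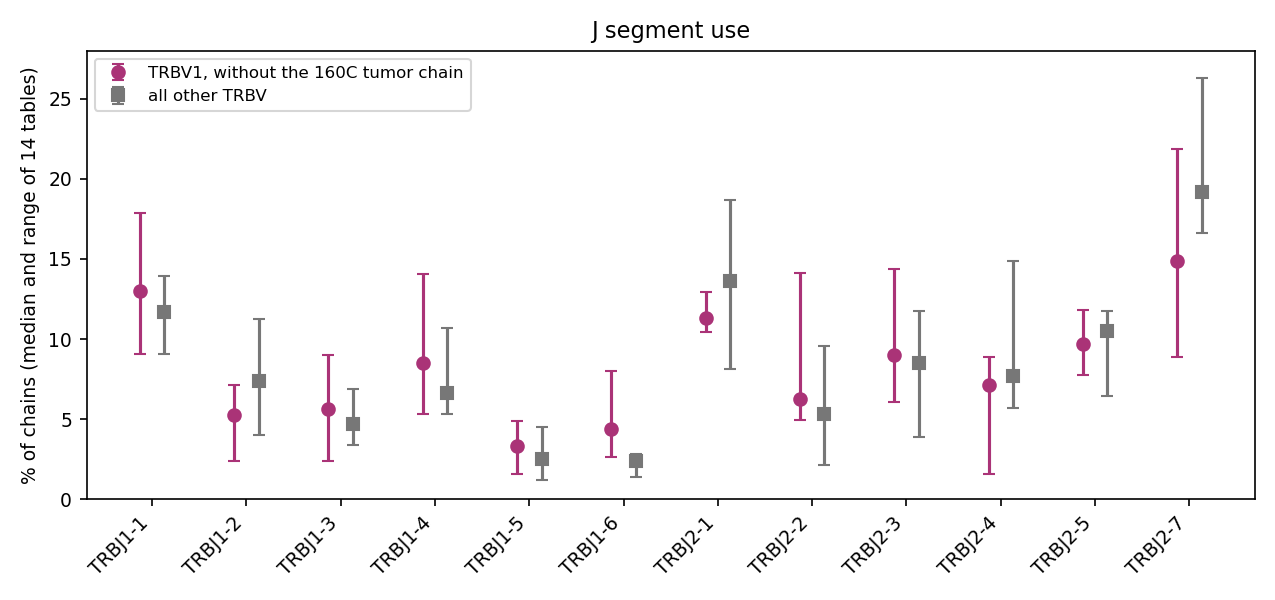
Use of each TRBJ gene (% of chains, y axis) among TRBV1 chains without the mouse-160C tumor chain and among all other chains. Points are medians and bars the range over the 14 tables: TRBV1 lies lower at TRBJ2-7 (14.9% against 19.2%) and higher at TRBJ1-6 (4.37% against 2.37%).

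TRBV1 chains had long CDR3 loops. The mean length, counted from the conserved C to the closing F, ran from 14.3 to 14.8 amino acids per table, against 13.7 to 13.96 for all other chains. It was longer in all 14 tables, by a median of 0.55 amino acids (0.42 in the mouse-160B tumor to 1.08 in the mouse-160C tumor). In each table the difference exceeded 5 of its standard errors, which are those of cells and not of animals. Over the 7 thymus tables the difference was 0.56 ± 0.047 amino acids (SD, n = 7), with p = 0.0156 in the exact sign-flip permutation test. Without the mouse-160C tumor chain the median difference was 0.53, and TRBV1 was again longer in 14 of 14 tables. Averaged over all tables, TRBV1 ranked 2 of the 19 genes at 14.5 amino acids, after TRBV2 at 14.7 and before TRBV5 at 14.3.

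The extra length came with more V-derived bases. For distinct chains in the annotation tables, TRBV1 CDR3s held a median over tables of 15.18 V-derived bases against 13.7 in the others, and more in 14 of 14 tables. The V end had lost 1.82 bases against 2.85, and it was untrimmed in 37.9% of TRBV1 chains against 23.2%, again in the same direction in all 14 tables. Non-templated bases numbered 4.20 against 4.27 and were fewer in 10 of 14 tables. J-derived bases numbered 18.4 against 18.2 and were more numerous in 11 of 14 tables. The whole CDR3 came to 43.1 against 41.8 bases. With 17 germline V bases TRBV1 ranked 2 of 19 genes for V bases kept. For V bases lost it ranked 14, counted from the gene that lost most. TRBV2, TRBV12-2, TRBV12-1, TRBV31 and TRBV13-2 lost fewer, so low trimming was not particular to TRBV1. Annotation rows covered all TRBV1 cells in 11 of the tables, 92.3% in the mouse-160B thymus, 40.4% in the mouse-164B thymus and 31.7% in the mouse-164C tumor. The reads had a median of 232 bases and reached CDR1 in 48 of 13191 TRBV1 rows, so the V gene was identified mainly from its 3′ part, with a mean identity of 99.96%.

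**Figure D4:**
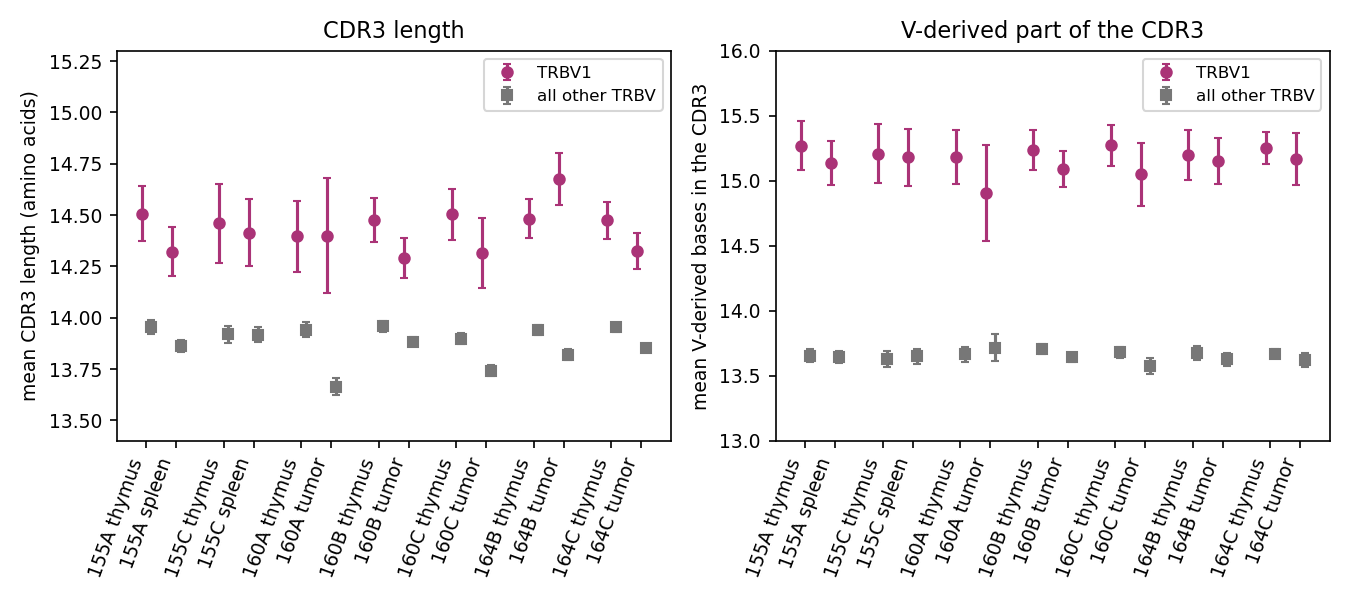
Left, mean CDR3 length (amino acids) of TRBV1 cells without the mouse-160C tumor chain and of all other cells, by table. Right, mean number of V-derived bases in the CDR3 of distinct chains. Bars are 95% intervals from the standard error over cells or chains, the y axes do not start at 0, and TRBV1 lies above the other chains in all 14 tables in both panels.

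A small set of TRBV1 reads ran past the coding end into the germline sequence shown above, through the heptamer, with no D segment. There were 49 such rows among 13240 (0.37%), in 13 of the 14 tables and in all 7 animals, each of 1 transcript, and 48 of them were assigned TRBJ1-1. Such rows were found for 8 other TRBV genes, 37 rows in all, of which TRBV23 had 11 of 1643. In 20 TRBV1 cells, from 10 tables and 6 animals, this read stood as the main TRB chain. These cells count among the 9652 but hold no rearranged TRBV1 chain in this transcript.

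Among thymic cells with both chains, TRBV1 was paired with the invariant TRA chain of NKT cells more often than the other V genes pooled, with a higher ratio still for TRBV13-2. Invariant NKT cells carry TRAV11 (or its copy TRAV11D) joined to TRAJ18, respond to lipids on CD1d, and are known to use mainly the TRBV13 genes, TRBV29 and TRBV1. This pairing, called NKT-like here, was found in 63 of 372 TRBV1 cells in the mouse-164C thymus (16.9%), 37 of 407 in mouse-164B (9.09%), 28 of 221 in mouse-160C (12.7%), 60 of 308 in mouse-160B (19.5%), 16 of 117 in the thymus of mouse-160A (13.7%), 12 of 67 in mouse-155C (17.9%) and 25 of 135 in mouse-155A (18.5%). The other chains of the same tables stood at 7.17%, 5.72%, 8.55%, 10.5%, 9.52%, 8.60% and 8.05% in the same order. The TRBV1 value was higher in 7 of 7 thymus tables, and in 7 of 7 under every alternative run for it, those without repeated barcode parts included. The mean difference was 7.17 ± 3.12 percentage points (SD, n = 7), with p = 0.0156 in a two-sided exact sign-flip permutation test over the animals, the smallest p that 7 animals allow. The 243 NKT-like TRBV1 cells of all tables, 241 of them thymic, had 236 distinct TRB chains and 237 clonotypes.

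Seen from the NKT-like cells, TRBV1 made up a median of 9.54% of them (7.53 to 13.7) against a median of 5.15% of the other thymic cells. The ratio of both shares within a table had a median of 1.97 and was above 1 in all 7 tables. Among the known NKT genes, TRBV13-2 had a higher median ratio, 5.02, TRBV13-1 of 1.77 and TRBV29 of 1.60, while TRBV13-3 stood at 0.85. NKT-like TRBV1 cells had longer CDR3s than the other TRBV1 cells of the thymus, taken without the mouse-160C tumor chain. The means were 14.8 ± 1.505 amino acids (SD, 241 cells) against 14.3 ± 1.48 (SD, 1383 cells), and longer in 7 of 7 animals. TRBJ1-6, the segment raised among TRBV1 chains, took 1.24% of the NKT-like and 5.28% of these other TRBV1 cells of the thymus, pooled over animals. The low value was not particular to TRBV1, since NKT-like thymic cells on other V genes had 1.28%. Outside the thymus, the mouse-160C and mouse-164B tumors had 1 such TRBV1 cell each, and the other 5 spleen and tumor tables had 0. Taking 3 cells as the limit that a count of 0 allows, these 5 tables allow up to 0.586% (0 of 512 cells, mouse-164C tumor) to 7.50% (0 of 40 cells, mouse-160A tumor). No TRBV1 cell carried the MAIT-like pair of TRAV1 and TRAJ33. The thymic tables are labelled CD8+ T cells, and these cells are part of them.

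With NKT-like cells left out, TRAV partners were broad. TRAV12-1, TRAV3-1 and TRAV12-2 were the most frequent, with medians of 10.8%, 6.88% and 4.25% of TRBV1 cells against 9.68%, 6.55% and 3.58% of the other cells. TRAV12-1 was higher in 10 of 14 tables, and its highest share, 16 of 69 cells (23.2%) in the mouse-155C spleen, included the 7 cells of that table's largest TRBV1 clonotype. TRAV3-1 reached 23.6% in the mouse-160C tumor, where the mouse-160C tumor chain with its leading TRA sequence made up 41 of the 50 such cells. The TRAV3-1 shares include that sequence, CAVSAQCSPGT, which does not end in F or W. It occurred in 1052 cells with 882 different TRB chains over the 14 tables, so these shares are not all receptor pairings. Its part in the TRAV3-1 share of the other tables is not given. TRAV12-2 reached 25.0% (10 of 40 cells) in the mouse-160A tumor, and these cells included a clonotype of 5 cells and another of 4. A TRA chain was present in 34.2% of all TRBV1 cells and in 35.6% of the others.

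Clonotypes of at least 2 cells held more of the TRBV1 cells than of the other cells, pooled over V genes, in both spleens, and less in all 5 tumors. Because the gene was chosen for its spleen clonotypes, the spleen values are a description. In the mouse-155A spleen 19 of 204 TRBV1 cells (9.31%) were in such clonotypes against 0.19% of the others, and in the mouse-155C spleen 12 of 69 (17.4%) against 4.72%. In both, TRBV1 had the highest value of the 19 genes. In the tumors the shares were 6.05% against 23.3% in mouse-164C, 39.5% against 51.2% in mouse-164B, 62.9% against 71.2% in mouse-160C, 18.6% against 21.99% in mouse-160B and 55.0% against 80.1% in mouse-160A. The exact intervals of TRBV1 and of the other cells were separated in all of these but mouse-160B, and TRBV1 ranked 8 to 14 of 19 genes. The median gene stood at 10.8% in mouse-164C, 39.5% in mouse-164B, 62.9% in mouse-160C, 19.0% in mouse-160B and 53.2% in mouse-160A. Taken gene by gene, TRBV1 thus lay at or near the median gene in the tumors, and clearly below it in mouse-164C only. Without the mouse-160C tumor chain, the mouse-160C tumor stood at 31.7%. Because tables differ in depth, the shares were also computed for an expected draw of 1241 cells per table, and TRBV1 then stood at 1.80% against 20.1% in mouse-164C, 28.5% against 44.9% in mouse-164B, 55.2% against 66.7% in mouse-160C, 5.83% against 14.5% in mouse-160B and 54.3% against 78.4% in mouse-160A. In the thymus 0% to 1.30% of TRBV1 cells were in such clonotypes against 0.36% to 5.71% of the others. The direction in the mouse-164B tumor turned, to 3.94 points higher than the others, when clonotypes seen in more than 1 animal were left out, and the mouse-160C difference then stood at 0.12 points. With clonotypes defined by the TRB chain alone, the mouse-160C tumor difference was 14.3 points and the mouse-155A spleen difference -0.26 points. The mouse-155C spleen difference was -3.37 points where each chain needed at least 2 transcripts. Over the 5 tumors the mean difference from the pooled other cells was -13.1 ± 8.37 points (SD, n = 5), lower in 5 of 5. The exact sign-flip permutation test gave p = 0.0625, the smallest that 5 animals allow.

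**Figure D5:**
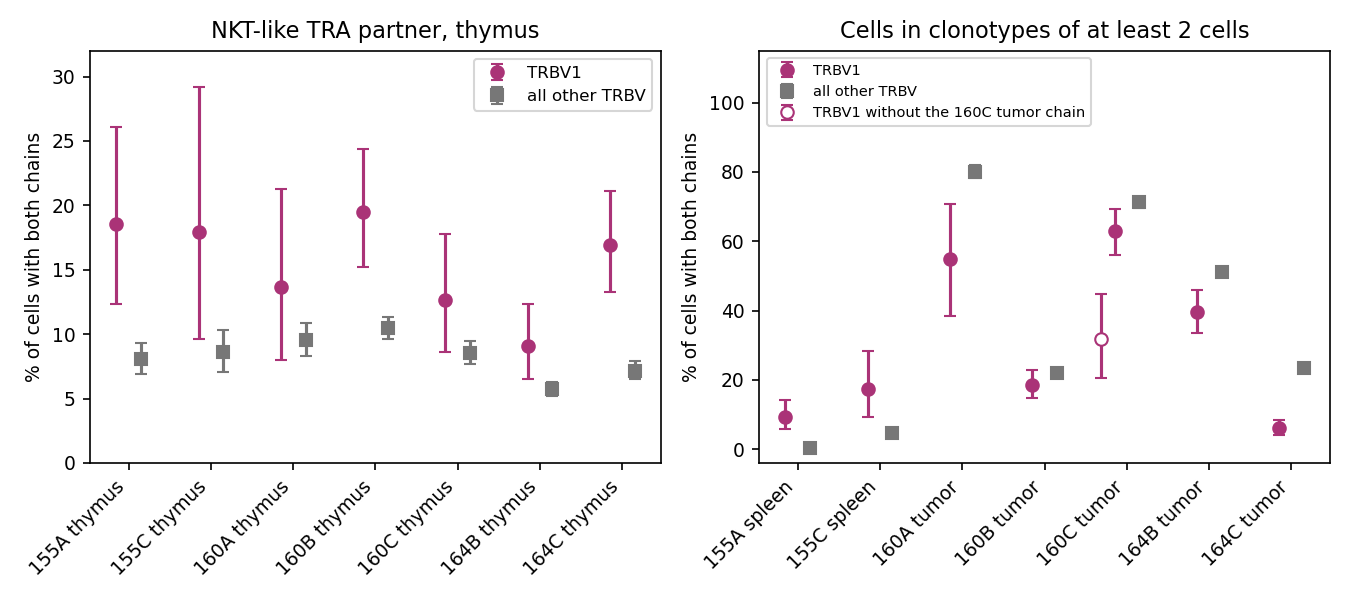
Left, share of thymic cells with both chains that carry the NKT-like TRA partner (%), for TRBV1 and for all other chains. Right, share of cells with both chains that lie in clonotypes of at least 2 cells (%) in the spleen and tumor tables, with the mouse-160C tumor also shown without the mouse-160C tumor chain (open point). Bars are exact 95% intervals for counting error: TRBV1 is higher on the left in 7 of 7 tables, and on the right higher in both spleens and lower in the 5 tumors.

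The largest clonotype of the mouse-155A spleen had 19 cells, 0.57% of the cells with both chains (0.34 to 0.89), on the mouse-155A spleen chain with the TRA chain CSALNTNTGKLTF of TRAV5-1 and TRAJ27. The next largest clonotype of that table, on TRBV13-2, had 2 cells. The chain was found in 34 cells of the table, 20 of them with a TRA chain, and 19 of these 20 had that TRA sequence. The 19 cells came from 3 first-round wells and 7 sublibraries, and 11 of them had at least 2 TRB transcripts. In the mouse-155C spleen the largest TRBV1 clonotype had 7 cells, the same as a clonotype on TRBV3. Its chain was found in 15 cells, and all 7 with a TRA chain shared it.

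In the tumors the leading TRBV1 clonotype ranked lower by size in its table. It held 10 cells in mouse-164C, on a TRBJ2-1 chain with TRA chain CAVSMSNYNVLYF, at rank 30, and 27 cells in mouse-164B, on the mouse-164B tumor chain, at rank 17. It held 41 cells in mouse-160C, on the mouse-160C tumor chain with TRA sequence CAVSAQCSPGT, at rank 12. That TRA sequence does not end in F or W and occurred with 882 different TRB chains, and 5 of the 41 cells had at least 2 TRA transcripts. The mouse-160C rank thus rests on a doubtful TRA partner. The leading TRBV1 clonotype held 6 cells in mouse-160B, on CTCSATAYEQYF, at rank 56, and 9 cells in mouse-160A, with TRA chain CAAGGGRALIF, at rank 18. None of the tumor tables was therefore led by a TRBV1 clonotype of both chains. By TRB chain alone, the mouse-160C tumor chain was the most frequent of its table, with 825 cells. Its rank as a clonotype rests on the 150 of these cells with a TRA chain, which were split over 48 TRA sequences.

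Most frequent TRBV1 chains had 1 leading partner, and a few did not. The mouse-164B tumor chain had 41 cells, 30 with a TRA chain, of which 27 (90.0%) had the same one. The TRBJ2-7 chain of the mouse-160C tumor had 20 cells and the same TRA chain in 11 of 12. The TRBJ2-7 chain of the mouse-164C tumor, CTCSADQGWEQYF, had 38 cells and a median of 5.5 TRB transcripts, but the 9 cells with a TRA chain had 9 different ones.

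Many TRBV1 chains were found in more than 1 animal. Of the 5452 distinct chains 1202 (22.05%) were in at least 2 animals, against 21.4% of the chains on other V genes, 26 were in at least 5 and 3 were in all 7. These counts depended on weakly supported cells. With at least 2 transcripts the share in at least 2 animals was 6.42% against 5.00%, and 1 chain was in at least 5 animals and 0 in all 7. Without any repeated barcode parts the share was 8.64% against 8.81%, with 6 chains in at least 5 animals and 1 in all 7. Counting all cells, the 3 chains of all 7 animals were the mouse-160C tumor chain, the mouse-164B tumor chain and a TRBJ2-1 chain of 14 amino acids.

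The last differed from the others in how it was spread and encoded. The mouse-164B tumor chain had 41 of its 58 cells in 1 tumor, and all 55 annotation rows had the sequence given above. The TRBJ2-1 chain had 8 cells in 8 tables, 1 in each, and was encoded by 3 nucleotide sequences. They are shown because their capitals, the bases between V and J, differ while the protein does not.
TRBJ2-1 chain, 4 rows in 3 animals: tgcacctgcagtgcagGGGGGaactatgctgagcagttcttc
TRBJ2-1 chain, 3 rows in 3 animals: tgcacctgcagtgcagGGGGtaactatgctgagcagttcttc
TRBJ2-1 chain, 1 row in 1 animal: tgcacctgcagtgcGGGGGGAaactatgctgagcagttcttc
A TRBJ1-1 chain of 14 amino acids, named after its values were seen, had 20 cells in 6 animals and 9 nucleotide sequences. The TRBJ2-7 chain of the mouse-160C tumor, by contrast, had 34 cells in 6 animals, 20 of them in the mouse-160C tumor, and 1 nucleotide sequence in all 33 rows. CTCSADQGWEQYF had 59 cells in 6 animals, 38 of them in the mouse-164C tumor, and 2 nucleotide sequences. The read through the recombination signal was likewise among the chains of at least 5 animals.

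Of 170 clonotypes found in both tables of an animal, 11 (6.47%) carried TRBV1, close to the 5.58% that TRBV1 made up of the thymic cells with both chains. By animal they numbered 0 in mouse-164C, 4 in mouse-164B, 1 in mouse-160C, 5 in mouse-160B and 0 in mouse-160A, with 1 between the spleen and thymus of mouse-155C and 0 in mouse-155A. Each had 1 cell in the thymus. The 27-cell clonotype of the mouse-164B tumor and a 16-cell clonotype of the same tumor (TRBJ1-4, TRAV14-1 and TRAJ27) were among them. So were 2 clonotypes of 5 cells in the mouse-160B tumor, on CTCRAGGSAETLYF and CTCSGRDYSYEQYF, and 2 clonotypes of 3 cells in the mouse-164B tumor. Neither leading spleen clonotype was found in the thymus of its animal. Between animals, 10 of 2963 TRBV1 clonotypes (0.34%) were found in at least 2, against 0.31% of the other clonotypes, and 2 of the 10 were NKT-like. Without any repeated barcode parts the 10 became 4, while the 11 clonotypes within animals were counted as 11 again.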

How the data were processed

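The 8 labelled samples are multiplexed sublibraries of CD8+ T cell receptor cDNA made with the Parse Evercode TCR kit, and none could be mapped to a group. The authors' deposited tables, 14 for cells, 14 for clonotypes and 14 for annotated reads, are split by animal and tissue. Deposited values were counts of transcripts and of reads per chain, and the clonotype tables also held a count of cells and the authors' frequency of each clonotype as a fraction of the table. The annotation tables deposited by the authors also gave V and J identity as a percent. The genome build in the submitters' processing notes is GRCm39. Chains were assembled, annotated and grouped into clonotypes by the authors with the Parse Biosciences TCR pipeline, whose version is not given in the sources used here. A barcode's last part names the sublibrary.

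Cells marked as multiplets were left out, and a trailing digit on gene names was dropped. Cell counts per clonotype were retallied from the cell tables and were equal to the deposited count in all 55460 rows. A clonotype was a TRA CDR3 together with a TRB CDR3, compared as amino acids. Shares have exact Clopper-Pearson 95% intervals and differences Newcombe intervals, which cover counting error only. Cells are not replicates. Over animals, whose genotype and tumor model are not tied to the tables, 4 differences were tested by a two-sided exact sign-flip permutation test chosen after seeing the data (tumor minus thymus share and tumor clone size over 5 animals, thymic NKT-like share and CDR3 length over 7), with Benjamini-Hochberg adjusted p-values of 0.625, 0.0833, 0.0312 and 0.0312. A gene was called where the intervals of its 2 tables did not overlap. To set clone sizes beside each other, expected shares at 1241 cells were computed from the hypergeometric formula. The 0 columns of per-sample values that were left unused are recorded with the parameters. Coordinates and germline sequence came from the GENCODE vM39 annotation and the GRCm39 genome. Python 3.11.15, pandas 2.3.3, numpy 2.4.6, scipy 1.17.1 and matplotlib 3.10.9 were used, and the interval and thinning functions were tested on simulated data.

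The gene, the lists and the tests were chosen with earlier results of these data known. Genes were named by rule: the 3 TRBV genes most like TRBV1 over the tables, the 3 most used TRBJ and TRAV genes, the other V genes known from invariant NKT cells, the leading TRBV1 clonotype of at least 3 cells in a table, at most 5 chains found in at least 5 animals, and at most 5 clonotypes found in both tables of an animal. Alternatives were a multiplet filter, a TRA chain, at least 2 transcripts, distinct chains, transcript weights, secondary chains, NKT-like cells, the clonotype definition and each sublibrary left out. A further 3, leaving out the mouse-160C tumor chain or repeated barcode parts, were chosen after seeing the data.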

Additional observations from a re-analysis of the deposited data

Results flagged for a closer look

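Signal for TRBV1 was also present in the chains that the comparisons leave out. As a secondary TRB chain of a cell without a multiplet mark, TRBV1 was found 1181 times among 23835 secondary TRB chains (4.95%), from 1.11% in the mouse-160A tumor to 8.60% in the mouse-160C tumor. Among cells bearing the multiplet mark it was the main TRB chain in 998 of 23733 (4.21%), from 0.23% in the mouse-160A tumor to 10.2% in the mouse-160C tumor. In the mouse-160C tumor, 98 of the secondary TRBV1 chains and 208 of the 224 in cells with the mark were the mouse-160C tumor chain, and without it the shares there were 3.34% and 0.81%. These cells and chains entered no comparison above, and no control sample is given against which they could be set.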

How the results depend on the processing

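The median TRBV1 share of 5.14% became 5.36% with a TRA chain required, 5.62% with at least 2 transcripts, 5.47% for distinct chains, 5.89% weighted by transcripts and 4.82% without the mouse-160C tumor chain, and 5.11% to 5.25% with 1 sublibrary left out. The count of 4 lower tumors became 2 for distinct chains, and the 69 called pairs of gene and animal became 40. The 11 clonotypes shared within animals became 240 when clonotypes were defined by the TRB chain, and 5 when each chain needed at least 2 transcripts. Reversed share differences, in percentage points, were -0.41 in the mouse-155C spleen with a TRA chain required, 0.54 in the mouse-160A tumor, -0.17 in the mouse-160C tumor and 0.076 in the mouse-164B tumor for distinct chains, and -2.48 in the mouse-160C tumor without the mouse-160C tumor chain. Reversed clone size differences, TRBV1 minus other, were -0.26 in the mouse-155A spleen and 14.3 in the mouse-160C tumor with the TRB chain alone, -3.37 in the mouse-155C spleen with at least 2 transcripts per chain, and 0.12 and 3.94 in the mouse-160C and mouse-164B tumors without clonotypes of more than 1 animal. The causes were not tested. Of the summary results under alternatives, 80 stayed within the stated limits and 11 moved, and of the single values 463 stayed, 62 moved and 10 reversed. With 1 sublibrary left out, the longer CDR3 held a median difference of 0.54 to 0.58 amino acids, TRBJ2-7 was lower in 12 to 13 tables, and the clone size share was lower in 11 to 12. Depth also limits the pairings, since 34.2% of TRBV1 cells have a TRA chain and the mouse-160A tumor gives 40 of them.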
